A study of Mus musculus with 16 samples.

Results

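The subject is a group of 9 genes of newborn neurons that migrate into the olfactory bulb: Dcx, Sox11, Sox4, Cd24a, Tubb2b, Igfbpl1, Stmn1, Nrep and Dlx6os1. They were taken by symbol from the 57010 genes of a count table, and all 9 had enough counts to be tested, among 18227 tested genes. The table holds 16 RNA-seq libraries of cells isolated from the olfactory bulb of mice aged 2 months with magnetic beads against CD11b, a surface protein of microglia. The 4 groups of 4 libraries each were WT male, WT female, APP-NL-G-F male and APP-NL-G-F female. WT mice were C57BL/6J, bought from the Jackson Laboratory, and carried the normal App gene. The authors kept all their lines on a C57BL/6J background. Whether the APP-NL-G-F mice had the same source is not stated, so genotype and source cannot be told apart. APP-NL-G-F mice carried a knock-in of a humanised App at the mouse gene itself, with 3 sets of disease mutations (NL for Swedish, G for Arctic, F for Iberian), so that no transgene promoter was involved. All mice were perfused, and the tissue was digested with papain and passed over 2 magnetic columns. Nothing in the labels says that each library came from a different mouse, so the p-values measure the spread between these libraries.

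New neurons are born throughout life in the subventricular zone and travel as chains of neuroblasts along the rostral migratory stream to the bulb, where most become inhibitory granule and periglomerular cells. Migrating neuroblasts carry microtubule proteins that let the nucleus follow the leading process, transcription factors of immature neurons, and surface glycoproteins that loosen contact between cells. Some of the 9 genes are not confined to neuroblasts, such as Stmn1 in dividing cells and Cd24a on several blood cells. Which cells in these libraries the RNA of each gene came from was not tested. The question was whether the RNA of the 9 genes differed between the genotypes in the microglial libraries. In bulk libraries of this kind, fewer cells of a type and less RNA per cell cannot be told apart.

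The libraries held 9052932 to 18117286 counts. The 15 microglial markers listed, such as P2ry12 and Cx3cr1, summed to 24717 to 29620 CPM (read counts relative to the size of the library, scaled by TMM, which corrects for differences in composition) and none of them was at 0 in any library. The 16 markers of mature neurons, such as Snap25, Syt1 and Rbfox3, were also detected in every library, at summed levels of 612 to 1048 CPM. Defining markers of the labelled cell type were thus present throughout, and neuronal RNA was found beside them in each library.

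The 4 members with the smallest adjusted p-values lie on 4 chromosomes. Of these 4 members, the upstream sequences of Dcx, Sox11 and Dlx6os1 are shown, although Sox11 did not meet both thresholds of the comparison that follows. Each is the 250 bases just before the outermost annotated start of the gene in GRCm39, read 5′ to 3′ on the strand of the gene, with matches to any of 3 searched motifs in capitals. Dcx (ENSMUSG00000031285) spans chrX:142638838-142716307 on the minus strand, of which exons cover 16.3%. Sox11 (ENSMUSG00000063632) is a gene of a single exon at chr12:27384263-27392573 on the minus strand. Igfbpl1 (ENSMUSG00000035551) lies at chr4:45809254-45826923 on the minus strand. Dlx6os1 (ENSMUSG00000090063), a long noncoding RNA, spans chr6:6749740-6871632 on the minus strand, and exons cover 6.62% of it.
Dcx, chrX:142716308-142716557: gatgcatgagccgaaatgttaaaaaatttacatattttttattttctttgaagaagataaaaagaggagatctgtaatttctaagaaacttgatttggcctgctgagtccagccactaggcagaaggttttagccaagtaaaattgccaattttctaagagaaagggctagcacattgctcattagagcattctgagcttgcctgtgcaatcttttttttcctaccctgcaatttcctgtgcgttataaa
Sox11, chr12:27392574-27392823: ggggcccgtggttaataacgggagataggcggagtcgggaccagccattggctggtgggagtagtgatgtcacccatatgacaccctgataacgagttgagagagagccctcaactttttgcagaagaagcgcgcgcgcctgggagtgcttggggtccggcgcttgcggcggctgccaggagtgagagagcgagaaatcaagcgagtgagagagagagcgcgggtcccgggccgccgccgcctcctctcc
Dlx6os1, chr6:6871633-6871882: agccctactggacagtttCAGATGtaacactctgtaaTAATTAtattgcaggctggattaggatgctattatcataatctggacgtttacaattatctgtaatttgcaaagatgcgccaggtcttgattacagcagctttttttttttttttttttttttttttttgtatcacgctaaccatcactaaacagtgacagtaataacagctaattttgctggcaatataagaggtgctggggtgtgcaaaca
The motifs were TAATTA, the core bound by homeodomain factors such as the Dlx proteins, CAGATG, which is an E-box of proneural factors, and ACAAAG, which is a core of Sox factors. They were searched on both strands, and 6.18%, 16.2% and 19.4% of 54654 windows of the same kind held them. Those windows were taken before annotated protein-coding and long noncoding RNA genes. The Dlx6os1 window held 1 TAATTA and 1 CAGATG, and 1 base of it lies in an exon of another gene. The windows of Dcx and Sox11 held none of these letters. The share of G and C was 36.4% for Dcx, 62.8% for Sox11 and 35.2% for Dlx6os1.

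Of the 9 genes, 3 were higher in APP-NL-G-F than in WT libraries: Dcx (doublecortin, a microtubule-associated protein of migrating neurons) 1.64-fold, Dlx6os1 (a long noncoding RNA of forebrain interneuron precursors, also known as Evf2) 1.72-fold and Igfbpl1 (an insulin-like growth factor binding protein-like gene of immature neurons) 1.73-fold. The genotypes were compared over both sexes in edgeR's quasi-likelihood test with sex as a term, and the calls took an FDR (Benjamini-Hochberg) under 0.1 together with a log2 fold change beyond 0.5 in either direction. The 3 called members compare with 8.64% of all tested genes called in either direction and 4.33% called higher. At the FDR alone 4 members passed, Sox11 with them, against 14.8% of all tested genes. The median log2 fold change was 0.14 over the members and -0.0014 over all tested genes, and 6 of 9 members lay above 0 against 49.6% of all tested genes. No member had genotype ranges of CPM that did not overlap, which 1.29% of all tested genes had.

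**Figure D1:**
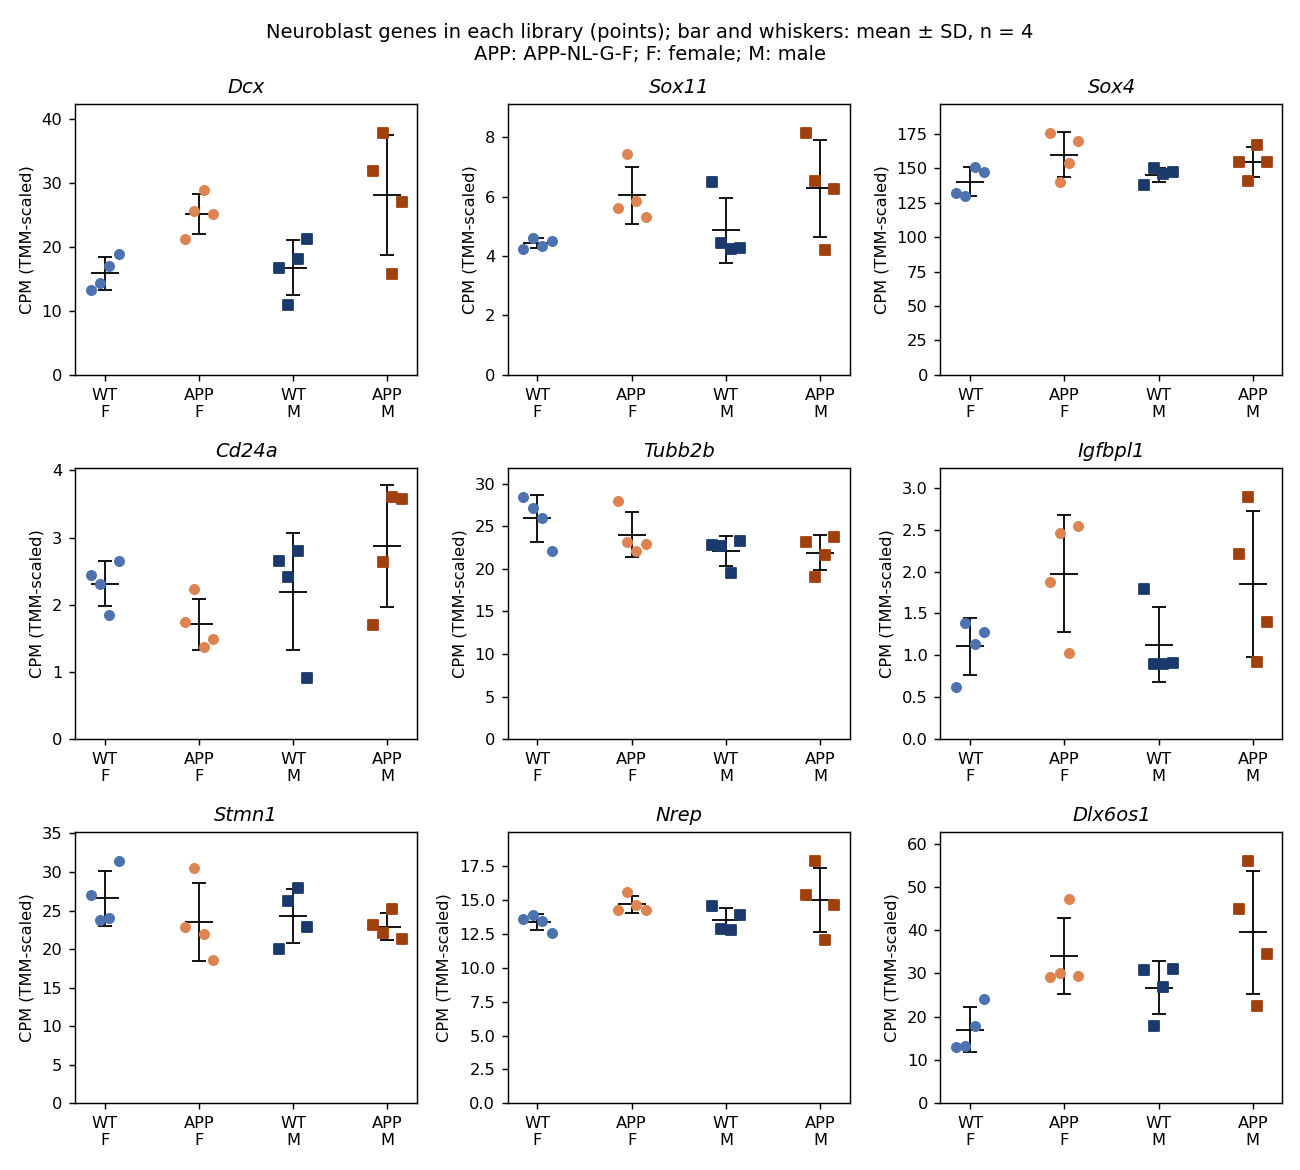
CPM (TMM-scaled, linear axis from 0) of each of the 9 genes by group, with 1 point per library and the mean ± SD of 4 libraries as bar and whiskers. Dcx ran from 11.01 to 21.3 CPM in WT and from 15.8 to 37.9 CPM in APP-NL-G-F libraries, while no APP-NL-G-F library of Tubb2b or Stmn1 lay above the highest WT library.

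Dcx was at 13.2, 14.3, 17.0 and 18.9 CPM in the WT female libraries and at 21.2, 25.7, 28.9 and 25.1 CPM in the APP-NL-G-F female libraries. In males it was at 16.7, 11.01, 18.1 and 21.3 CPM in WT and at 31.9, 37.9, 15.8 and 27.0 CPM in APP-NL-G-F. The female groups did not overlap, but the share of all tested genes with such female groups was not counted. In males APP-NL-G-F replicate 3 lay inside the WT range. Over both sexes 7 of 8 APP-NL-G-F libraries exceeded the WT median. The means were 16.3 ± 3.32 CPM (SD, n = 8) in WT and 26.7 ± 6.66 CPM (SD, n = 8) in APP-NL-G-F, a log2 fold change of 0.72 (SE 0.152, edgeR FDR 0.00635). An exact permutation of genotype within sex over 4900 arrangements, two-sided, gave p = 0.00327 for Dcx.

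Dlx6os1 was at 12.9, 13.2, 17.8 and 24.1 CPM in the WT female and at 29.3, 30.2, 47.2 and 29.4 CPM in the APP-NL-G-F female libraries. In males the values were 30.9, 17.98, 26.9 and 31.1 CPM in WT and 44.9, 55.9, 22.6 and 34.6 CPM in APP-NL-G-F. Every APP-NL-G-F library exceeded the WT median, but APP-NL-G-F male replicate 3 was again below the highest WT males. The log2 fold change was 0.78 (SE 0.184, edgeR FDR 0.0124), with an exact permutation p of 0.00612. The span of Dlx6os1 holds Dlx6 on the opposite strand and the unclassified transcripts Gm44094 and Dlx6os2 on its own strand. Dlx6, which encodes a homeodomain factor of these interneurons, had a log2 fold change of 0.75 (FDR 0.0132), while Gm44094 was at 0.63 (FDR 0.154) and Dlx6os2 at 0.55 (FDR 0.169). The library kit keeps the strand, but the strand setting of the counting is not given in the sources used here, so reads of Dlx6os1 and Dlx6 cannot be told apart with certainty.

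Igfbpl1 was the member with the fewest reads, 8 to 35 per library. It was at 0.625, 1.39, 1.14 and 1.28 CPM in WT female and 1.87, 2.46, 1.03 and 2.54 CPM in APP-NL-G-F female libraries. The WT male libraries held 1.80, 0.899, 0.895 and 0.913 CPM, and the APP-NL-G-F male libraries 2.21, 2.89, 0.922 and 1.40 CPM. In each sex the lowest APP-NL-G-F library lay inside the WT range. The log2 fold change of 0.79 (SE 0.264, FDR 0.0666) rests on this wide spread, and the call was lost in 7 of 16 fits with 1 library left out, at FDR 0.105 to 0.153. These were the fits without WT male replicate 2, WT female replicates 1 and 3, APP-NL-G-F female replicates 2 and 4, or APP-NL-G-F male replicates 1 and 2. Dcx and Dlx6os1 stayed called in all 16 of these fits.

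Sox11 and Sox4 are SoxC transcription factors, which drive the differentiation of immature neurons. Sox11 was at 4.25, 4.62, 4.35 and 4.52 CPM in WT female and 5.61, 7.45, 5.85 and 5.31 CPM in APP-NL-G-F female libraries. Its female groups did not overlap, and for this too no share over all tested genes was counted. The WT male libraries held 6.50, 4.44, 4.25 and 4.26 CPM, and the APP-NL-G-F male libraries 8.15, 6.52, 4.19 and 6.25 CPM. Every WT male library lay inside the APP-NL-G-F male range, whose replicate 3 was the lowest of all libraries. The log2 fold change of Sox11, 0.41 (SE 0.133), had an FDR of 0.0603 and stayed under the fold threshold. Sox4 was the most abundant member, with a WT mean of 142.7 ± 8.18 CPM and an APP-NL-G-F mean of 157.1 ± 13.1 CPM (SD, n = 8 each), with a log2 fold change of 0.14 and an FDR of 0.106. Of its 8 APP-NL-G-F libraries 6 lay above every WT library, and the exact permutation p, not adjusted for the number of members, was 0.0269. Sox12, the remaining gene of this family, had a log2 fold change of 0.46 and an FDR of 0.0238, also under the fold threshold.

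Tubb2b, a beta tubulin of immature neurons, and Stmn1, which destabilises microtubules in dividing and immature cells, were not called. Tubb2b ranged from 19.5 to 28.4 CPM in WT and from 19.1 to 28.0 CPM in APP-NL-G-F libraries, with a log2 fold change of -0.06 (95% interval -0.21 to 0.09). Its coding sequence is close to that of Tubb2a, and how reads were divided between them is uncertain; Tubb2a had a log2 fold change of -0.21 (FDR 0.0969). Stmn1 ranged from 20.02 to 31.4 CPM in WT and from 18.5 to 30.5 CPM in APP-NL-G-F libraries, with a log2 fold change of -0.13 (95% interval -0.33 to 0.07). Cd24a, a small surface glycoprotein of neuroblasts also found on several blood cells, had a WT mean of 2.25 ± 0.613 CPM and an APP-NL-G-F mean of 2.30 ± 0.898 CPM (SD, n = 8 each). Its log2 fold change of -0.0049 had a 95% interval of -0.47 to 0.46, and its sign turned to 0.046 when library totals alone scaled the counts. Nrep, a neuronal protein linked to regeneration, had means of 13.4 ± 0.680 and 14.8 ± 1.62 CPM (SD, n = 8 each), and its log2 fold change was 0.14 with an FDR of 0.231. Of the 8 APP-NL-G-F libraries 7 exceeded the WT median of Nrep, and the exact permutation p, not adjusted for the number of members, was 0.049.

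**Figure D2:**
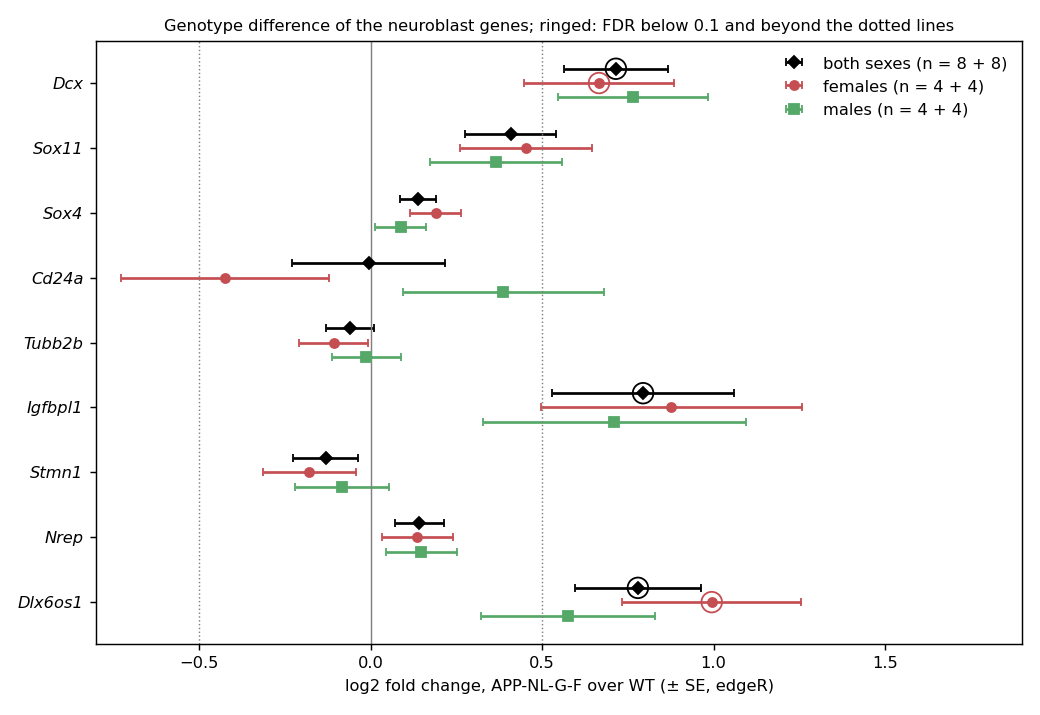
Log2 fold change of APP-NL-G-F over WT (± SE) for each of the 9 genes over both sexes, in females and in males, with rings on the called values and dotted lines at an absolute log2 fold change of 0.5. Dcx, Igfbpl1 and Dlx6os1 are ringed over both sexes, Dcx and Dlx6os1 in females, and none in males.

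Within females 2 members were called, Dcx with a log2 fold change of 0.67 (SE 0.219, FDR 0.0863) and Dlx6os1 with 0.99 (SE 0.261, FDR 0.0316), against 7.15% of all tested genes called and 2.82% called higher. Both calls were lost without WT female replicate 1, WT female replicate 2 or APP-NL-G-F female replicate 3, where Dcx was at 0.59, 0.64 and 0.60 and Dlx6os1 at 0.88, 0.91 and 0.80. The Dcx call was also lost without WT female replicate 3 or APP-NL-G-F female replicate 2 or 4, and with limma voom (FDR 0.109), with the replicate number as a block (FDR 0.132) and with the mature neuron covariate (FDR 0.781). WT female replicates 1 and 2 had the lowest Dlx6os1 values of all libraries, and the highest summed levels of the 8 endothelial markers, 155.9 and 192 CPM against 65.4 to 122 CPM in the other 14 libraries. Their summed astrocyte markers, 1146 and 1347 CPM, were also above the 609 to 951 CPM of the others, and the part of these differences in the result was not tested.

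Within males edgeR called 0 of the 9 members, against 0.252% of all tested genes. At an unadjusted p under 0.05 there were 2 members, Dcx with a log2 fold change of 0.76 (FDR 0.170) and Dlx6os1 with 0.57 (FDR 0.391). Of the members DESeq2 called Dcx alone and limma voom called none. Over all 18227 tested genes DESeq2 called 276 and limma voom 84, against 46 in edgeR. APP-NL-G-F male replicate 3 held the lowest value of its group for Dcx, Dlx6os1, Sox11, Igfbpl1 and Nrep, and the highest for Sox4, Cd24a (3.61 against 1.70 to 3.58 CPM) and Stmn1 (25.2 against 21.3 to 23.1 CPM). Without it Dcx was at 0.97 (FDR 0.0288) and Dlx6os1 at 0.77 (FDR 0.0969), both called. Calls over all tested genes rose as well, to 603 of 18114 from 46 of 18227 with all libraries. APP-NL-G-F male replicate 3 also had the lowest summed level of mature neuron markers in the APP-NL-G-F libraries, 723 CPM against 860 to 1048 CPM in the other 7. Its summed monocyte and neutrophil markers were the highest of all 16 libraries, 55.9 CPM against 27.3 to 46.96 CPM, and the part of these differences in the result was not tested.

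The difference between the sexes was tested as an interaction, and edgeR, DESeq2 and limma voom called 0 of the 9 members, with 0 members at an unadjusted p under 0.05 in edgeR; edgeR called 0.0274% of all tested genes. The interval of the difference, female less male genotype effect, was -0.75 to 0.55 for Dcx and -0.34 to 1.18 for Dlx6os1, so that sizable differences were not detectable with 4 libraries a group. Cd24a had the lowest unadjusted p of the members (0.0709) with a difference of -0.81 (SE 0.423, FDR 0.894), from effects of -0.42 in females and 0.39 in males. Between female and male libraries, with genotype as a term, edgeR called 0 members against 0.0604% of all tested genes. DESeq2 and limma voom also called none. At an unadjusted p under 0.05 there were 2 members, Tubb2b with a female minus male log2 difference of 0.18 (FDR 0.714) and Dlx6os1 with one of -0.42 (FDR 0.746).

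Per kilobase of annotated exon, Sox4 had the highest level, at 31.3 ± 2.69 CPM per kb (SD, n = 16), followed by Stmn1 at 4.84 ± 0.709. Tubb2b was at 3.81 ± 0.437, Dlx6os1 at 3.63 ± 1.49 and Nrep at 3.58 ± 0.354 CPM per kb, and these 3 did not differ beyond their spread. The place of Dlx6os1 depended on the genotype: it was at 2.71 ± 0.918 CPM per kb in WT, below Nrep (3.41) and Tubb2b (3.89), and at 4.56 ± 1.41 CPM per kb in APP-NL-G-F, above Nrep (3.76) and Tubb2b (3.73). Dcx followed at 1.70 ± 0.584, Cd24a at 0.881 ± 0.288, Sox11 at 0.651 ± 0.152 and Igfbpl1 at 0.438 ± 0.201 CPM per kb. Only from Sox4 to Stmn1 and from Nrep to Dcx did the mean ± SD of neighbours in this order not overlap. These lengths take the whole of the annotated exons, whichever transcript was made. The members also differed in how much they varied between libraries of the same group. The SD of log2 CPM within groups was 0.53 for Igfbpl1, 0.46 for Cd24a, 0.43 for Dlx6os1 and 0.37 for Dcx, against 0.11 for Sox4 and a median of 0.24 over all tested genes.

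With the group means removed, the 9 genes did not vary together from library to library. The 36 pairwise Pearson correlations of log2 CPM over the 16 libraries ran from -0.70 to 0.91, with a median of -0.13. Dcx, Dlx6os1, Nrep, Sox11 and Igfbpl1, picked out after their values were seen, had positive correlations of 0.39 to 0.91 with each other. Sox4 was negatively correlated with Nrep (-0.70) and Sox11 (-0.58), and Cd24a, Tubb2b and Stmn1 had correlations of -0.48, -0.42 and -0.14 with Dcx.

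**Figure D3:**
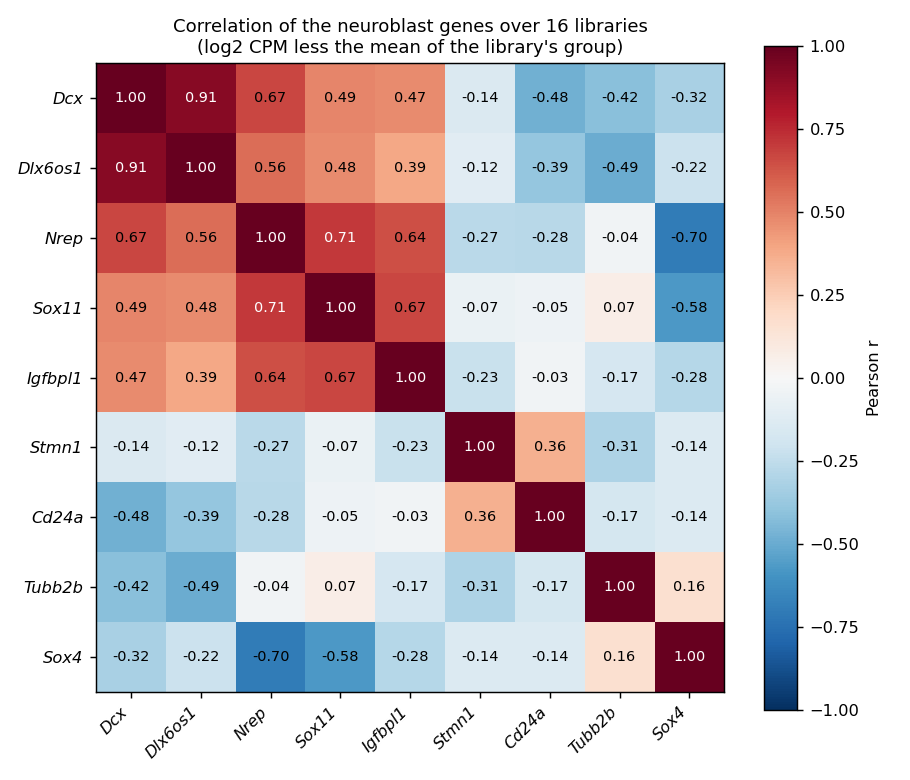
Pearson correlation between the 9 genes over 16 libraries, on log2 CPM less the mean of the library's group, from -1 (blue) to 1 (red). Dcx and Dlx6os1 have the highest value, 0.91, and Nrep and Sox4 the lowest, -0.70.

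In a family of 26 relations tested by permutation with 100000 resamples, Dlx6os1 followed Dcx with a Pearson r of 0.91 and a Spearman rho of 0.95. Both p-values were 1e-05, the smallest these permutations can give, and 0.00026 after Benjamini-Hochberg adjustment. Without the 2 libraries farthest from the median of Dcx r was 0.86. Nrep had a Pearson r of 0.67 with Dcx (permutation p 0.00509, adjusted 0.0265) but a rho of 0.36 (permutation p 0.169, adjusted 0.367), and r fell to 0.36 without those 2 libraries, so that the relation rests on them. For Sox11 (r 0.49, rho 0.37) and Igfbpl1 (r 0.47, rho 0.38) the adjusted Pearson permutation p was 0.165 for each.

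**Figure D4:**
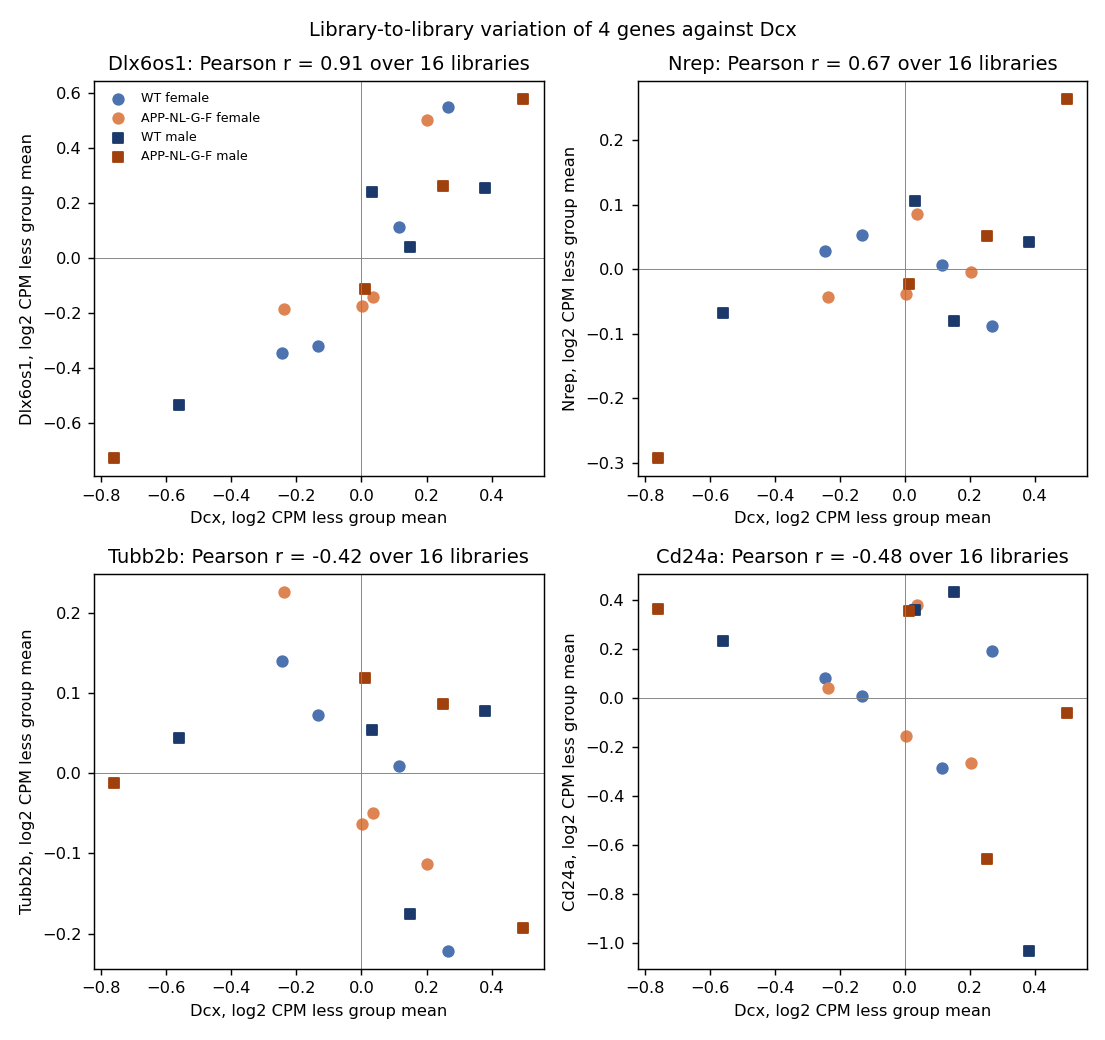
Log2 CPM less the group mean of Dlx6os1, Nrep, Tubb2b and Cd24a (y axes) against that of Dcx (x axis), with 1 point per library in 4 groups of 4. Dlx6os1 rises with Dcx across the whole range (r 0.91), Nrep mainly through the lowest and highest Dcx libraries (r 0.67), and Tubb2b and Cd24a have r of -0.42 and -0.48.

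The mean of the mature neuron markers moved with Dcx and Dlx6os1, but single markers did not all do so. With the group means removed, their r with Dcx ran from -0.07 for Nefl to 0.92 for Rbfox3, with Stmn2 at 0.03 and Thy1 at 0.09. All 16 of these markers were at counts above 0 in every library, and they summed to 612 to 858 CPM in WT and 723 to 1048 CPM in APP-NL-G-F libraries. Their mean log2 CPM had an r of 0.82 with Dcx (rho 0.80, adjusted permutation p 0.00104 and 0.00312) and of 0.86 with Dlx6os1 (rho 0.83, adjusted permutation p 0.00026 and 0.00221), with the group means removed. Without the 2 libraries farthest from the median of the neuronal score both were 0.77. For Igfbpl1 the r was 0.11 (rho 0.04, adjusted permutation p 0.726 and 0.953). Sox11 and Nrep had r of 0.36 and 0.44 with the neuronal score (adjusted permutation p 0.304 and 0.189). Sox4, Stmn1, Tubb2b and Cd24a had r of -0.11, -0.24, -0.27 and -0.46 with it (adjusted permutation p 0.726, 0.568, 0.522 and 0.165). With the neuronal mean as a covariate edgeR called 0 of the 9 members over both sexes: Dcx was at 0.32 (FDR 0.348), Dlx6os1 at 0.25 (FDR 0.538) and Igfbpl1 at 0.69 (FDR 0.512). The neuronal markers themselves differ with genotype, with 6 of 16 above the WT level at an FDR below 0.1. Of all tested genes 14.8% passed that FDR in either direction. The covariate therefore also takes out part of the genotype difference. The microglial mean had an r of -0.70 with Dcx (rho -0.61, adjusted permutation p 0.0153 and 0.067) and of -0.64 with Dlx6os1 (rho -0.64, adjusted permutation p 0.0347 and 0.0575), and r was -0.60 and -0.58 without the 2 libraries farthest from the median of the microglial mean. Neither relation passed at an adjusted p of 0.1 in other settings: with library totals alone r was -0.42 for Dcx and -0.36 for Dlx6os1 (adjusted permutation p 0.221 and 0.357), and with group means kept -0.50 and -0.36 (adjusted permutation p 0.147 and 0.317). Of the other members, with the group means removed, Tubb2b had the highest r with the microglial mean, 0.53 (adjusted permutation p 0.131). Sox4 was at 0.20 and Nrep the lowest at -0.22 (adjusted permutation p 0.612 and 0.603). The 15 microglial markers summed to 24794 to 29620 CPM in WT and 24717 to 28657 CPM in APP-NL-G-F libraries. With the microglial mean as a covariate the same 3 members were called.

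Among further genes of the lineage, listed apart from the 9 members, 29 of 30 were tested, 27 lay above 0 and the median log2 fold change was 0.33. Of these genes 3 were called higher and 1 lower, against 4.33% of all tested genes called higher. Gad1, Gad2, Sp8 and Meis2 are also in the list of bulb interneuron markers, so these lists are not independent. Called higher were Dlx6, Meis2, a homeodomain factor of bulb interneurons, at 0.63 (FDR 0.0179), and Tiam2, an activator of Rac, at 0.57 (FDR 0.0336). Marcksl1, an actin-binding substrate of protein kinase C that is expressed in many cell types, was called lower at -0.80 (FDR 0.00797), from 90.8 ± 24.2 CPM in WT to 51.2 ± 16.1 CPM in APP-NL-G-F (SD, n = 8 each). At the FDR alone 14 passed as higher and 1 as lower, against 14.8% of all tested genes in either direction. The 14 included Gad1 (0.49, FDR 0.0205), Gad2 (0.38, FDR 0.00417) and Elavl3 (0.45, FDR 0.0156), which are also expressed by settled neurons. The 30 genes summed to 567 to 825 CPM in WT and 692 to 1038 CPM in APP-NL-G-F libraries, and Draxin alone among them was at 0 in some libraries.

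Of the signals and receptors that guide neuroblasts 27 of 29 were tested, with a median of 0.20 and 2 called higher. Of all tested genes 8.64% were called in either direction and 4.33% called higher. The 2 called were Lrp8, a receptor for reelin, at 0.53 (FDR 0.0284), and Dcc, a receptor for netrin, at 0.57 (FDR 0.0417). Reln itself, which mitral cells and other bulb neurons make, was at 0.01 (SE 0.291, FDR 0.991). It was at 0.60 in females (FDR 0.384) and at -0.57 in males (FDR 0.573), and its WT libraries ran from 20.3 to 111 CPM. Prok2 and Gdnf were too low to be tested. Of the markers of dividing progenitors 19 of 20 were tested, 2 lay above 0 and the median was -0.18. Pcna, a clamp of DNA replication and repair, was called lower at -0.70 (FDR 0.000517), the 1 call among the 19, against the same 8.64%.

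**Figure D5:**
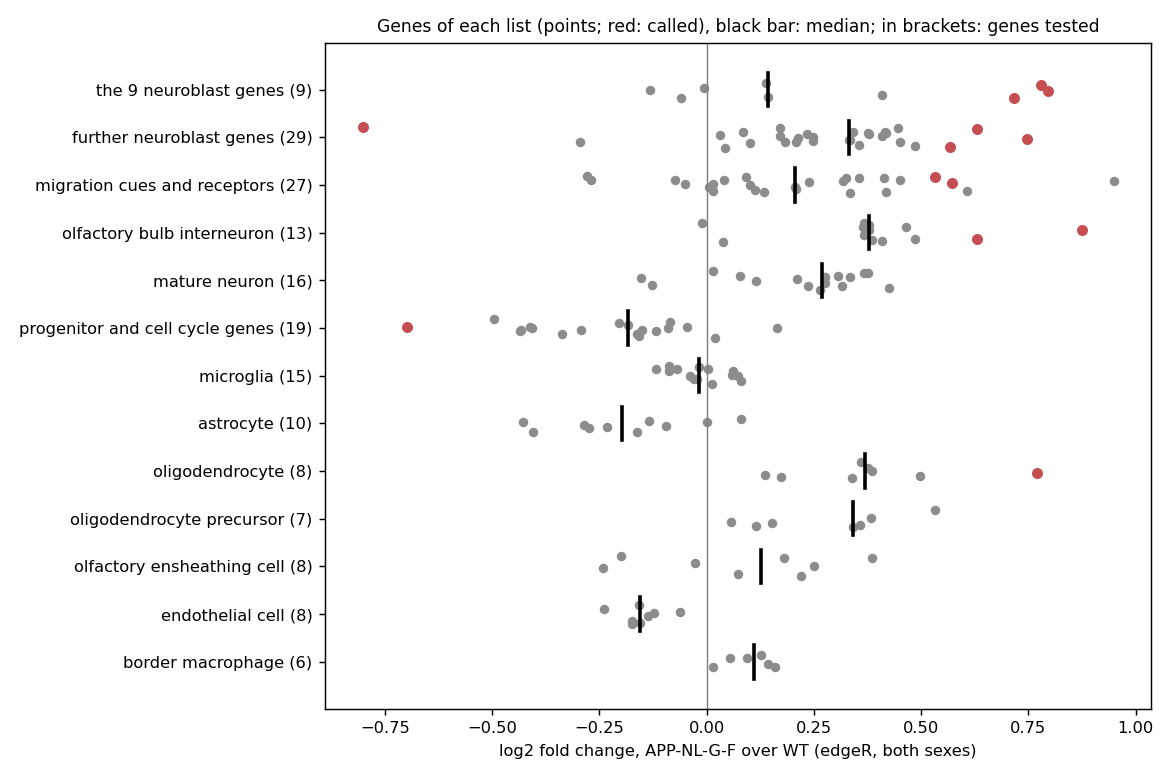
Log2 fold change of APP-NL-G-F over WT over both sexes for each tested gene of 13 lists (points, red where called), with the median as a black bar and the number of tested genes in brackets. The medians are 0.14 for the 9 neuroblast genes, 0.33 for further neuroblast genes, 0.38 for bulb interneuron, 0.27 for mature neuron, -0.02 for microglia and -0.18 for progenitor and cell cycle genes. Gad1, Gad2, Sp8 and Meis2 are in both the further neuroblast and the bulb interneuron list.

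The relatives of the members did not all move as they did. In the doublecortin family Dclk2, a kinase with doublecortin domains, was called at 0.59 (FDR 0.0389), Dclk1 was at 0.39 (FDR 0.0267) and Dcdc2a at -0.45 (FDR 0.336). Dcdc2b was at 0.56 (FDR 0.128) and Dclk3 at 0.22 (FDR 0.592). Of 7 other beta tubulins Tubb6 was called lower at -0.70 (FDR 0.00762), while Tubb4a was at 0.33 (FDR 0.0266), Tubb4b at -0.27 (FDR 0.0603) and Tubb3, the neuronal tubulin, at 0.18 (FDR 0.288). Tubb5 and Tubb1 were at -0.09 (FDR 0.276) and 0.46 (FDR 0.468). The other stathmins, Stmn2, Stmn3 and Stmn4, were at -0.13, 0.12 and 0.39, with FDR of 0.721, 0.472 and 0.133.

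Of 13 tested markers of bulb interneurons 12 lay above 0, with a median of 0.38. Synpr, a synaptic vesicle protein, was called at 0.87 (FDR 0.000819) along with Meis2, which is also in the further neuroblast list. These 2 calls compare with 4.33% of all tested genes called higher. Of the 16 mature neuron markers 14 lay above 0, with a median of 0.27, and edgeR called 0 (8 at an unadjusted p under 0.05, none in DESeq2 or limma voom). The 15 microglial markers lay between -0.12 and 0.08, and edgeR called 0 (1 at an unadjusted p under 0.05, none in DESeq2 or limma voom). Oligodendrocyte markers had a median of 0.37 with Mog, a myelin protein, called at 0.77 (FDR 0.0335), and those of oligodendrocyte precursors one of 0.34. The medians were -0.20 for astrocyte, -0.16 for endothelial, 0.13 for olfactory ensheathing, 0.11 for border macrophage and 0.05 for monocyte and neutrophil markers. Each of these medians had opposite signs in the sexes. In the same order they were -0.58, -0.96, -0.28, -0.02 and -0.20 in females. The medians in males were 0.14, 0.65, 0.29, 0.23 and 0.30. In females edgeR called 3 of 10 astrocyte and 5 of 8 endothelial markers lower, against 7.15% of all tested genes called. In males it called 0 of either, with 6 of 8 endothelial markers higher at an unadjusted p under 0.05. Of 8 lymphocyte markers 2 were tested, with a median of 0.02, and none of the 6 of red blood cells was; Hbb-bs, the highest of these, reached 19 counts.

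Among 18226 other tested genes, those most like Dcx over the 16 libraries, by Pearson r of log2 CPM less the group mean, included Dlx6 (0.98), 2700078F05Rik (0.97), Grik2 (0.96), Ank2 (0.96), Zfp462 (0.96), Lrch2 (0.95), Pxdn (0.95), Magi1 (0.95) and Gm48692 (0.95). Of these Dlx6, 2700078F05Rik, Grik2, Lrch2 and Gm48692 were called higher in APP-NL-G-F. Grik2, a kainate receptor subunit, was at 0.64 (FDR 0.0802). Among the members Dlx6os1 stood at rank 112, Nrep at 2001, Sox11 at 3433 and Igfbpl1 at 3558, and Stmn1, Sox4, Tubb2b and Cd24a at 10364 or below. Of the other listed genes, Dlx6 (rank 1), Tiam2 (rank 16), Celf4 (rank 30), Dlgap1 (rank 37) and the mature neuron marker Rbfox3 (rank 86) were nearer to Dcx than any member.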

How the data were processed

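Gene counts of 16 libraries were analysed. The authors made strand-keeping SMART-Seq libraries from total RNA, aligned paired-end reads with STAR 2.7.8 to GRCm39 with gencode vM32 and an added human App sequence, and deposited raw counts per gene without normalization, named by symbol. Analyses used R 4.3.3, edgeR 4.0.16, limma 3.58.1 and DESeq2 1.42.0. A minimum of 5 counts in 8 or more libraries was required, and genes were scaled by TMM and fitted with edgeR's quasi-likelihood test over the whole table, with p-values adjusted over all 18227 tested genes. For contrasts within a sex and for the interaction, 1 coefficient per group was fitted. Log2 CPM has a prior count of 2. SE is the absolute log2 fold change over the root of F, and 95% intervals use the degrees of freedom of the test. Totals of 9052932 to 18117286 counts limit genes with few reads: a count of 0 allows 3 counts, or 0.166 to 0.331 CPM, for counting error only.

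The text names every member, the called genes of each list, the families of the members and genes from the 10 most like Dcx; other genes were chosen after their values were seen. The members, the 19 gene lists and the tests were chosen with earlier results of these data known. Positions and upstream windows came from GRCm39 with gencode vM39, which matched 97.7% of tested genes. The procedure was tested on simulated data. Alternatives were other scalings, filters, tests and thresholds, covariates, a replicate block and leaving out each library; 2 for correlations were chosen after seeing the data. Some genes and sequences that these rules select are not reported here. No pair of libraries held identical counts.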

Additional observations from a re-analysis of the deposited data

Results flagged for a closer look

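In 48 groups of 4 libraries (the 9 genes, the library totals and the neuronal and microglial scores) 4 held a library whose gap to the nearest other exceeded Dixon's critical share of the range, and chance flags about 5% of such groups. In WT males replicate 1 was the highest for Sox11, at 6.50 CPM against 4.25 to 4.44 CPM in the other 3 (gap 0.917 of the range), and for Igfbpl1, at 1.80 CPM against 0.895 to 0.913 CPM (0.980 of the range). Replicate 3 of the same group was the lowest for Tubb2b, at 19.5 CPM against 22.7 to 23.2 CPM (0.859 of the range). In APP-NL-G-F females replicate 3 was the highest for Dlx6os1, at 47.2 CPM against 29.3 to 30.2 CPM (0.949 of the range).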

How the results depend on the processing

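Over both sexes 3 members were called in 9 of 12 other settings, the exceptions being 2 at an FDR below 0.05, 4 at the FDR alone, and 0 with the mature neuron covariate, where the cause was not tested. With 1 library left out 2 or 3 were called. In females, where 2 were called, 1 (Dlx6os1, with Dcx lost) was called at an FDR below 0.05, with limma voom and with the replicate block, 0 with the mature neuron covariate, and 0 to 2 with 1 library left out. In males, where 0 were called, 2 were called without a filter on low counts, 1 with DESeq2, and 0 to 2 with 1 library left out. The replicate block changed no other call, giving 3 members over both sexes and 0 in males; same-numbered libraries of the genotypes had deviations correlated at -0.33 to 0.13, so the numbers were not taken to pair them.

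Over all tested genes, calls moved by over 1.5 times in these settings. Over both sexes 1574 became 2692 at the FDR alone and 235 with the mature neuron covariate. In females 1304 became 833 at an FDR below 0.05, 2136 without a filter, 2043 and 245 with the microglial and neuronal covariates, and 594 to 2110 with 1 library left out. In males 46 became 8 at an FDR below 0.05, 880 without a filter, 276 with DESeq2, 84 with limma voom, 15 with the replicate block, 12 with the neuronal covariate, 4 in a separate fit, and 5 to 603 with 1 library left out. The interaction had 5 and the sex difference 11, against 470 and 57 without a filter and 81 and 8 with DESeq2; the interaction had 0 to 7 in the remaining settings with all libraries and 1 to 43 with 1 left out, the sex difference 5 to 9 with 1 left out.

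Signs of uncalled values turned as follows. Cd24a over both sexes was 0.046 with library totals alone, 0.020 with limma voom, 0.30 with the mature neuron covariate, 0.025 without a sex term and -0.14 to 0.066 with 1 library left out. Tubb2b in males was 0.019, 0.026 and 0.020 with library totals alone, the neuronal and the microglial covariate, and -0.067 to 0.052 with 1 library left out. The Dcx interaction was 0.019 with the microglial covariate and -0.29 to 0.089 with 1 library left out. With group means kept, the r of Sox4 was 0.25 with Dcx and 0.32 with the neuronal score, and with library totals alone 0.023 and 0.17. With library totals alone the r with the microglial score was -0.27 for Cd24a, 0.14 for Igfbpl1 and -0.094 for Stmn1.

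The 8 to 35 reads of Igfbpl1 and 9 to 51 of Cd24a per library limit both genes, and 4 libraries a group limit the comparison of the sexes.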
